A study of Arabidopsis thaliana with 12 samples.

Results

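The general phenylpropanoid pathway is the trunk that leads from phenylalanine to the CoA esters used for lignin, sinapate esters and flavonoids. Its 10 listed genes in Arabidopsis thaliana are PAL1, PAL2, PAL3, PAL4, C4H, 4CL1, 4CL2, 4CL5, HCT and C3H. They are listed by gene identifier, with no threshold on measured values, though earlier results of these data were known when the list was made. All but 4CL5 and C3H stand among 31687 genes that have a single named entry in at least 1 deposited table. Transcript levels came from RNA sequencing of whole seedlings, 4 days old and grown in darkness, in 12 libraries that form 4 groups of 3. Seeds had been held at 4 °C for 3 days and given 12 h of light before the dark growth. Wild type (Col) was kept dark or given white light for 6 h, and both mutants, det1-1 and pifq, were kept dark. DET1 represses photomorphogenesis, the light-type development of seedlings, and det1-1 is known as a partial loss-of-function point allele. The pifq line is known to carry lesions in the bHLH factors PIF1, PIF3, PIF4 and PIF5, which promote growth in darkness. The comparisons ask how light, or loss of either kind of dark-growth regulator, changes transcripts.

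Phenylalanine ammonia-lyase (PAL) removes ammonia from phenylalanine to give cinnamate, the entry step. Cinnamate 4-hydroxylase (C4H, a cytochrome P450) makes p-coumarate, and 4-coumarate:CoA ligase (4CL) activates it to p-coumaroyl-CoA, where the flavonoid and lignin branches part. HCT moves the coumaroyl group to shikimate, and C3H, a second P450, hydroxylates that ester on the way to lignin and sinapate esters. In seedlings the products are known as ultraviolet screens, pigments and the stiffening polymer of the vascular tissue.

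The values are FPKM, a fragment count divided by transcript length and by the mapped total, which the authors deposited as a single number for each group. They are normalized for length, so levels of different genes can be set side by side. The same dark wild type libraries had values at a median of 0.927 (det1-1) and 0.971 (pifq) of those in the light comparison. The values thus also carry a scaling that differs between comparisons. No value per library, read count or p-value accompanies them. Depth is therefore unknown, no value has an SD, and none of the differences below has a replicate check or a test. A gene is called higher or lower where it differed from dark wild type in the same table by at least 2-fold. In these whole-seedling samples, fewer cells of a type and less RNA per cell cannot be told apart. Every comparison uses the same dark wild type libraries, so the comparisons are not independent. The group labelled pifq had 0.802 FPKM of PIF3 against 30.2 FPKM in dark wild type and 1.39 FPKM of PIF5 against 9.44 FPKM, while PIF1 was 23.7 against 19.2 FPKM and PIF4 20.9 against 20.5 FPKM. DET1 was at 16.7 FPKM in det1-1 (15.1 FPKM in wild type), a level that cannot check a point allele. PORA, the dark-form protochlorophyllide reductase, stood at 178 FPKM before and 3.08 FPKM after light.

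Not every gene of the pathway could be read. C3H was not analysed here. C4H and 4CL2 were analysed in the light and det1-1 tables, not in the pifq table. 4CL5 had 2 entries in every table, so its values are given apart from the counts. This left 8 genes in the light comparison, 8 in that of det1-1 and 6 in that of pifq, and each of them was at 1 FPKM or more in 1 of the groups. The lowest was PAL3, which was under 1 FPKM in dark wild type in every table and so could be counted only where it was higher. Its other group was at 1.62 FPKM in the light comparison and at 3.86 FPKM in that of det1-1.

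The 10 genes lie on chromosomes 1, 2, 3 and 5 of TAIR10.1, the RefSeq build. PAL1 (AT2G37040) spans chromosome 2, 15557367 to 15560755, on the minus strand, with 2 exons, and PAL2 (AT3G53260) chromosome 3, 19744018 to 19747114, minus strand, with 2 exons. PAL3 (AT5G04230) spans chromosome 5, 1160569 to 1163957, plus strand, with 3 exons, and PAL4 (AT3G10340) chromosome 3, 3203988 to 3208135, plus strand, with 3 exons. C4H (AT2G30490) lies on chromosome 2, 12993625 to 12996012, minus strand, and 4CL1 (AT1G51680) on chromosome 1, 19158746 to 19161737, minus strand. 4CL5 (AT3G21230, chromosome 3, 7448040 to 7452106) and 4CL2 (AT3G21240, chromosome 3, 7454269 to 7457404) are neighbours on the minus strand with 2162 bases between them. HCT (AT5G48930) spans chromosome 5, 19836299 to 19838235, and C3H (AT2G40890) chromosome 2, 17058053 to 17060652, both on the minus strand.

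The family copies are alike, yet few exact 32-base stretches of their exons occur elsewhere in the genome. How well the reads separate the copies was not tested. The coding sequences of PAL1 and PAL2 were 82.9% identical in a global alignment, those of PAL3 and PAL4 76.7%, and those of PAL1 and PAL3 66.3%. 4CL1 and 4CL2 were 79.7% identical, and 4CL5 was 67.8% identical to 4CL1. Of the 32-base stretches in the exons, 1.74% of those of PAL1 and 1.81% of those of PAL2 occurred elsewhere in the genome, and at most 0.200% of those of any other gene of the set did. The stretch that encodes the Ala-Ser-Gly triplet of the PAL active site shows how close the copies are, printed 5′ to 3′ on the coding strand with capitals at bases that differ from PAL1. PAL2 and PAL4 differed at 7 of these 57 bases each and PAL3 at 11.
PAL1 (chromosome 2, 15559117 to 15559173): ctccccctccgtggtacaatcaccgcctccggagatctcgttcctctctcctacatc
PAL2 (chromosome 3, 19745771 to 19745827): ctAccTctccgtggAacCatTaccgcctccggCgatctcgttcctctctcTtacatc
PAL3 (chromosome 5, 1162066 to 1162122): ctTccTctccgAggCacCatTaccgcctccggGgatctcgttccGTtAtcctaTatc
PAL4 (chromosome 3, 3206137 to 3206193): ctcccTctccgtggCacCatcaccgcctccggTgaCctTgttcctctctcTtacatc

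The 300 bases before the annotated start of PAL1 and of PAL2 are printed because these copies had the highest folds in light. Capitals mark every base that lies in a run of 8 bases, with at least 2 G or C, found in both windows on the gene's strand, a search made after the values were seen. Overlapping runs are joined, so a longer capital stretch need not be in the other window as a whole. The stretch gtggggacg began 81 bases before the start of PAL1 and 112 bases before that of PAL2, and 8 of 27443 windows of protein-coding genes held it. The stretch ctactcccat began 36 and 65 bases before the starts, and 6 windows held it. Both counts include the windows of PAL1 and PAL2 and cover the gene's strand. No other pair of genes was searched, so how often a pair shares such runs is unknown. Of the other shared runs, aattgact, cacaataa and ctccaaaaa are common letters, each in 143 to 304 windows. The run gactgaac, which opens the first PAL1 stretch and closes a PAL2 stretch, is also shared. The windows that hold it were not counted.
PAL1 (chromosome 2, 15560756 to 15561055, minus strand): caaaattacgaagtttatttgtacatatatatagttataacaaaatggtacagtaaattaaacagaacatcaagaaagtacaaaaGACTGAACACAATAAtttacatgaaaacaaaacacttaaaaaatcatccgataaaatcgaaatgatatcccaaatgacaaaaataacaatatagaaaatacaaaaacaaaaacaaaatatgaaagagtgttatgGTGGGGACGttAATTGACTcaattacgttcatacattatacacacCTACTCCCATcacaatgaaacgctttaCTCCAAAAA
PAL2 (chromosome 3, 19747115 to 19747414, minus strand): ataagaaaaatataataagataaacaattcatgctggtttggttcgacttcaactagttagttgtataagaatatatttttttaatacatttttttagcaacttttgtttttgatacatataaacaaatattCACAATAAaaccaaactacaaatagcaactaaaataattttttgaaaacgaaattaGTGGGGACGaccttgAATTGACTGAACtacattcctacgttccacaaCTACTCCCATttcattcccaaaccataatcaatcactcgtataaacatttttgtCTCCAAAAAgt

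Motifs known from light and phenylpropanoid promoters were also searched as exact letters on both strands of the same 300 bases. The G-box core CACGTG, bound by HY5 and by PIFs, was in 1 of the 10 windows, that of PAL4, and in 7.09% of all windows. AC elements are known as MYB sites of phenylpropanoid genes. The form ACCAACC was in 3 of the 10 windows (4CL2, which held it at 2 places, HCT and C3H) and in 3.18% of all windows. ACCTACC and ACCTAAC were in 0 of the 10 windows, and in 1.33% and 2.93% of all. No match overlapped another. The windows of PAL4 and HCT are shown as examples, with the matches in capitals. A match is only a run of letters, and a window without one says nothing of the factor.
PAL4 (chromosome 3, 3203688 to 3203987, plus strand): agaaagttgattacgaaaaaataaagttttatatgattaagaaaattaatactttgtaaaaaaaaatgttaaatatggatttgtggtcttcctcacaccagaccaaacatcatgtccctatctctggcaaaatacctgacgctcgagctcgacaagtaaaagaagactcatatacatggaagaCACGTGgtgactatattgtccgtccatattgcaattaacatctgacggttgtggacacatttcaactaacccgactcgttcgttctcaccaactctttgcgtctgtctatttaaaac
HCT (chromosome 5, 19838236 to 19838535, minus strand): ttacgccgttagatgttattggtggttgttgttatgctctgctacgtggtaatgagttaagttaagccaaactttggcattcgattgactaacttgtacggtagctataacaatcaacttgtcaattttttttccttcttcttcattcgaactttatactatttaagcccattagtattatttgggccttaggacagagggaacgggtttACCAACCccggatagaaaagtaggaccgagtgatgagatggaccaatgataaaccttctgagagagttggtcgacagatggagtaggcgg

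In dark wild type the pathway was highly expressed apart from PAL3, with 4CL5 set aside. In the light table C4H had the highest level, 154 FPKM, followed by HCT at 149, PAL1 at 129.9, 4CL1 at 108, PAL4 at 67.1, PAL2 at 50.8 and 4CL2 at 36.0 FPKM. PAL3 was far below the others at 0.985 FPKM. C4H exceeded 94.5% of the analysed genes of that table and PAL3 exceeded 3.11% of them. Analysed genes reached 1 FPKM in the higher group, so those below PAL3 in darkness were counted only through their light level. The rank of PAL3 is thus set by this minimum and is not a rank among all genes. With no spread between libraries, it cannot be said which neighbours in this order differ. The dark wild type levels of a gene in the different tables, once scaled to the light table, had a highest-to-lowest ratio of 1.00 to 1.02 for PAL1, PAL3, PAL4, C4H, 4CL1, 4CL2 and HCT. PAL2 was the exception, from 49.6 to 67.1 FPKM, or 1.35-fold.

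**Figure D1:**
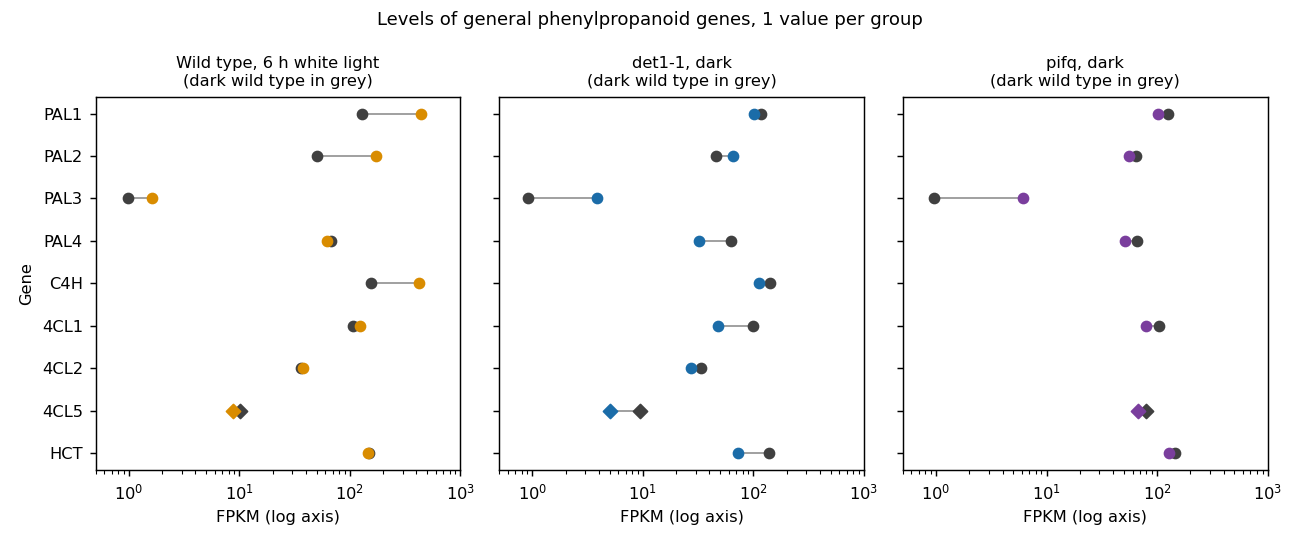
FPKM on a log axis for each gene, with dark wild type in grey and the compared group in colour, joined by a line, in 3 panels (6 h of light, det1-1, pifq). Circles are genes with a single entry and diamonds the higher of the 2 entries of 4CL5. PAL1, PAL2 and C4H moved furthest to the right in light, and PAL3 did in both mutants, up to 6.10 FPKM in pifq.

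After 6 h of white light PAL1, PAL2 and C4H were higher, and the other analysed genes, PAL3 and PAL4 among them, stayed within 2-fold. PAL1 went from 129.9 FPKM in darkness to 444 FPKM, 3.41-fold higher. PAL2 went from 50.8 to 171 FPKM, 3.36-fold, and C4H from 154 to 425 FPKM, 2.77-fold. These 3 of 8 analysed genes, 37.5%, were called higher, against 12.4% of the 14810 genes analysed in that comparison. None of the 8 was lower, against 10.1% of all genes. Of all analysed genes, 5.15% had a larger log2 fold than PAL1 (1.77), 5.28% a larger one than PAL2 (1.75) and 7.02% a larger one than C4H (1.47). With the mean dark wild type of the tables as the base, the log2 fold of PAL2 was 1.61.

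Of the genes within 2-fold in light, PAL4 had 67.1 FPKM before and 61.8 FPKM after light, a log2 fold of -0.12. PAL3 went from 0.985 to 1.62 FPKM (0.71), a fold set by low levels, since it was 0.40 with 1 FPKM added to both groups. The ligases 4CL1 (108 to 125 FPKM, log2 0.21) and 4CL2 (36.0 to 37.3 FPKM, 0.05) differed little. HCT, the first enzyme on the lignin side, was 149 and 145 FPKM (-0.03). The median log2 fold of the 8 genes was 0.46, beside 0.02 over all analysed genes. It leans on PAL3, which was counted only through its light level. With a minimum of 5 FPKM in the higher group, which leaves PAL3 out, the median was 0.21. The higher of the 2 entries of 4CL5 went from 10.2 to 8.67 FPKM. Its lower entry was listed at 1.65 and 0.000651 FPKM.

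In det1-1 PAL1, PAL2 and C4H stayed within 2-fold of dark wild type. PAL1 had 118 FPKM in the dark control and 102 FPKM in det1-1, a log2 fold of -0.21. C4H was 143 and 112 FPKM (-0.34), and PAL2 was 46.0 and 64.7 FPKM (0.49, or 0.32 on the mean dark wild type of the tables). 4CL1, the gene called lower, had 48.2 FPKM in det1-1 against 99.6 FPKM in the control, 2.07-fold lower. PAL4 (62.3 to 32.4 FPKM, log2 -0.94) and HCT (138 to 72.3 FPKM, -0.93) lay just short of 2-fold, and 8.85%, 11.0% and 11.1% of all genes were lower than 4CL1, PAL4 and HCT. 4CL2 was 33.3 and 27.0 FPKM (-0.30). The higher entry of 4CL5 went from 9.44 to 5.05 FPKM (-0.90), and the lower entry 1.54 and 0.889 FPKM.

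PAL3 was the gene called higher in det1-1, from 0.913 to 3.86 FPKM, 4.22-fold. It entered the set only through its level in det1-1, so the call is a description. Its log2 fold was 2.08, and 1.34 once 1 FPKM was added to each group. With 5 FPKM added, neither it (0.58) nor 4CL1 (-0.98) reached 2-fold. The counts are 1 of 8 higher (12.5%) against 17.3% of 14844 genes, and 1 of 8 lower (12.5%) against 9.71%. These shares are near the background, so the counts are no result about the pathway. The median log2 fold was -0.32, beside -0.03 over all analysed genes.

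In pifq PAL3 was again higher and the rest were close to dark wild type. PAL3 went from 0.959 to 6.10 FPKM, 6.36-fold, and 1.75% of all analysed genes had a larger log2 fold than its 2.67. With 1 FPKM added to both groups it was 1.86, and with 5 FPKM added 0.90, short of 2-fold. PAL1 went from 126 to 101 FPKM (-0.32). PAL4 was 65.4 and 51.2 FPKM (-0.35), 4CL1 was 103 and 79.1 FPKM (-0.38), and HCT was 146 and 127 FPKM (-0.20). PAL2 was 65.1 and 56.2 FPKM (-0.21), but its sign rests on the dark wild type used, since the log2 fold was 0.05 with the mean of the tables. The counts are 1 of 6 higher (16.7%) against 12.9% of 15014 genes, and 0 lower against 13.2%, again near the background, and the higher gene is PAL3, which entered only through its level in pifq. The median log2 fold was -0.27, beside 0.01 over all. The entries of 4CL5 in this table were 78.7 and 67.2 FPKM and 2.61 and 0.305 FPKM. The dark wild type value of 78.7 FPKM stands against 10.2 FPKM in the light table, so these entries are not the same quantity in both tables and are not compared between them.

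**Figure D2:**
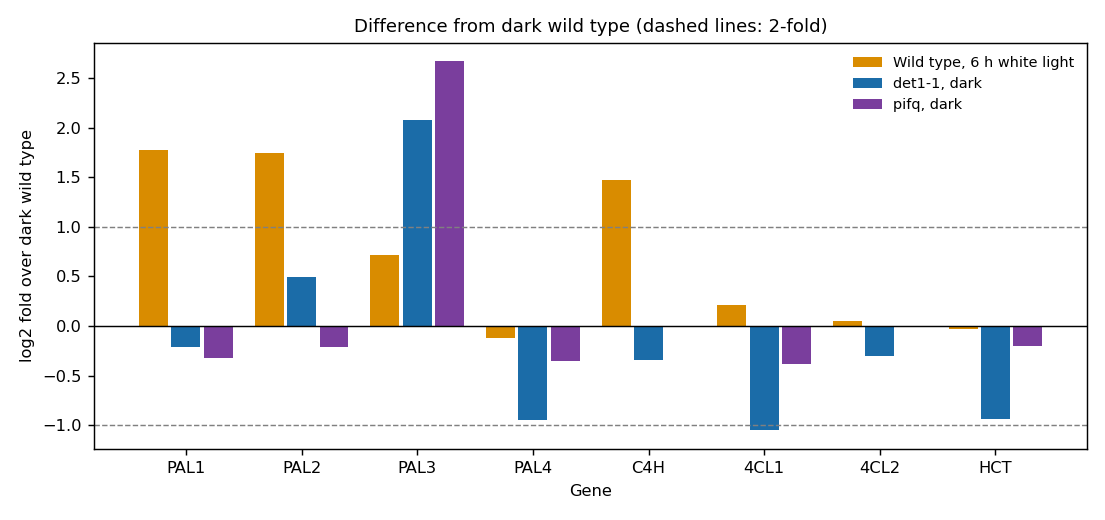
Log2 fold over dark wild type of the same table for each gene with a single entry, with bars for light, det1-1 and pifq and dashed lines at 2-fold. PAL1, PAL2 and C4H pass the upper line in light, PAL3 passes it in det1-1 and pifq, and 4CL1 passes the lower line in det1-1. There is no pifq bar for C4H and 4CL2.

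Set side by side, the copies of PAL had separate patterns. The log2 folds in light, det1-1 and pifq were 1.77, -0.21 and -0.32 for PAL1, and 1.75, 0.49 and -0.21 for PAL2. They were 0.71, 2.08 and 2.67 for PAL3, and -0.12, -0.94 and -0.35 for PAL4. PAL1 and PAL2, the closest pair in sequence, were thus high in light, whereas PAL3 and PAL4, the next closest pair, went in different directions in the mutants. The difference between copies has no replicate check.

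The makeup of the PAL family moved with these changes. The summed level of the PAL genes went from 249 FPKM in darkness to 678 FPKM, 2.72-fold higher. PAL1 made up 52.2% of the sum in the dark and 65.5% in light, PAL2 20.4% and 25.2%, and PAL4 27.0% and 9.12%. In det1-1 the sum was 203 FPKM against 227 FPKM, with PAL2 at 31.9% (20.3% in wild type) and PAL4 at 16.0% (27.4%). In pifq it was 215 FPKM against 258 FPKM, and PAL1 held 47.1% (49.0% in wild type), PAL2 26.2% (25.2%) and PAL4 23.8% (25.3%). The same dark wild type libraries thus gave PAL2 20.3% in the det1-1 comparison and 25.2% in that of pifq, so its shares shift with the baseline used. PAL3 stayed a minor part throughout, from 0.372% in the dark wild type of the pifq table to 2.84% in pifq. Its large folds thus concern a small share of PAL transcript. For the ligases, 4CL1 and 4CL2 summed to 143 FPKM before and 162 FPKM after light. In the det1-1 comparison they summed to 133 FPKM in wild type against 75.2 FPKM in the mutant, and 4CL1 held 74.9% and 64.1% of these sums.

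**Figure D3:**
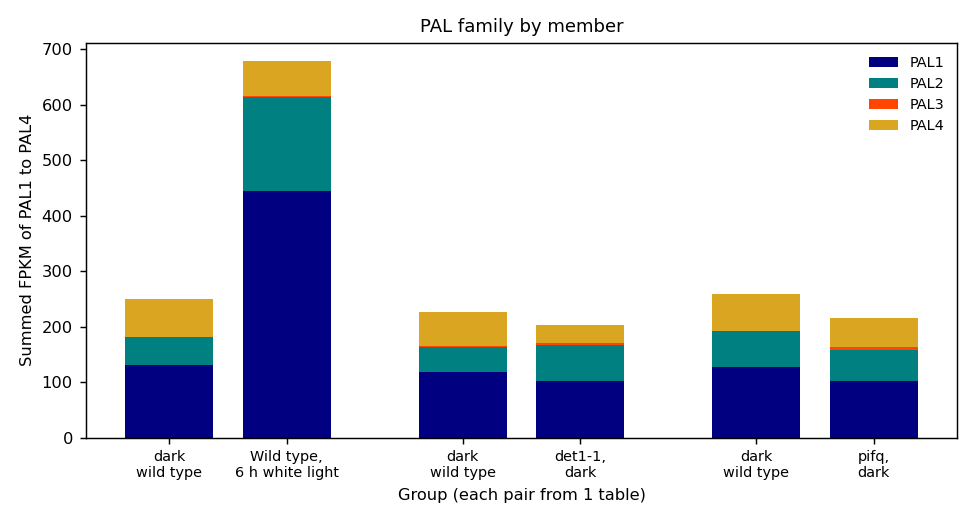
Summed FPKM of PAL1 to PAL4 as stacked bars from 0, with a pair of bars (dark wild type and the compared group) for each table. The light bar reaches 678 FPKM against 249 FPKM in the dark, through PAL1 and PAL2, while the bars of det1-1 and pifq, at 203 and 215 FPKM, are a little under their dark wild type.

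Genes on either side of the trunk were read from lists of 68 further genes. Their counts stand beside shares over all analysed genes of 12.4% higher and 10.1% lower in light, 17.3% and 9.71% in det1-1, and 12.9% and 13.2% in pifq. The supply of phenylalanine through the shikimate pathway was higher in light in 8 of 16 analysed genes and lower in 0, with a median log2 fold of 1.08. ADT1, an arogenate dehydratase of the last step to phenylalanine, went from 3.74 to 21.9 FPKM, and DHS1, the entry enzyme of the shikimate pathway, from 18.9 to 71.2 FPKM. In det1-1 5 of 16 were higher and 0 lower (median 0.54), with SK1, a shikimate kinase, from 18.5 to 78.0 FPKM and ADT1 from 3.47 to 11.1 FPKM. In pifq 1 of 12 was higher, under the 12.9% of all genes, and 0 lower (median 0.21). That gene was again ADT1, from 4.27 to 10.6 FPKM.

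C4H and C3H draw electrons from reductases. Of 5 genes for reductases, scaffold proteins and cytochrome b5, 0 were higher and 1 was lower in light (median -0.04). That one was ATR1, a P450 reductase, from 147 to 71.1 FPKM. In det1-1 and pifq 0 were called either way (medians -0.39 and -0.21).

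The Kelch F-box genes are known to mark PAL protein for breakdown. In light 3 of 4 were lower, against 10.1% of all genes, and 0 higher (median -1.42), with KFB20 (AT1G80440) from 299.8 to 60.1 FPKM and KFB01 (AT1G15670) from 77.4 to 24.0 FPKM. In det1-1 1 of 4 was lower, against 9.71% (median -0.59), AT2G44130, also named KMD3, from 140.3 to 29.9 FPKM. In pifq 2 of 4 were lower, against 13.2% (median -0.89), KMD3 from 151 to 70.6 FPKM and KFB20 from 292 to 144 FPKM. None was called higher in either mutant.

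The monolignol branch lies downstream and leads to lignin. In light 5 of 13 genes were higher, against 12.4% of all genes, and 0 lower (median 0.84). F5H1, the hydroxylase that leads to syringyl units and sinapate, went from 7.96 to 76.9 FPKM, and the alcohol dehydrogenase CAD4 from 70.3 to 320.0 FPKM. In det1-1 1 was higher and 6 were lower of 13, against 17.3% and 9.71% (median -0.82), with F5H1 from 7.38 to 64.8 FPKM and the laccase LAC17 from 45.6 to 14.4 FPKM. In pifq 0 were higher and 5 lower of 12, against 12.9% and 13.2% (median -0.61), among them the peroxidase PRX64 from 122 to 45.4 FPKM and the reductase CCR2 from 6.58 to 1.91 FPKM.

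Sinapate ester genes were higher in 3 of 5 in light (median 1.33), 2 of 4 in det1-1 (0.79) and 0 of 4 in pifq (0.31), with 0 lower in each. These counts leave out UGT84A1, which had 0 FPKM in dark wild type against 39.6 FPKM in light and 5.11 FPKM in det1-1. They also leave out SNG2, under 1 FPKM in every group, and SNG1 in det1-1, at 88.1 and 206 FPKM. These genes fall outside the rule for named genes. UGT84A2, which makes sinapoylglucose, went from 13.9 to 372 FPKM in light and from 12.9 to 36.6 FPKM in det1-1. UGT84A4 was 3.44 and 12.96 FPKM in light, and UGT84A3 1.82 and 28.3 FPKM in det1-1. Flavonoid genes were higher in 6 of 6 in light (median 7.38, and 5.37 with 1 FPKM added), 5 of 6 in det1-1 (4.31 and 2.28) and 2 of 4 in pifq (0.91 and 0.81), and lower in 0. Several of these had dark levels under the minimum and entered only through the other group, which leans their counts upward. In light DFR and LDOX, of anthocyanin synthesis, were 0.0111 and 45.0 FPKM and 0.106 and 54.5 FPKM, and in det1-1 CHS, the entry enzyme of flavonoids, was 4.53 and 411 FPKM. 4CL3, the ligase tied to flavonoids, was 0.564 and 42.5 FPKM in light and 0.523 and 14.2 FPKM in det1-1. It was 0.546 and 2.43 FPKM in pifq, where CHI, the chalcone isomerase, was 7.59 and 15.5 FPKM. In light and pifq 4CL3 falls outside the rule for named genes and is given as the remaining ligase of the family.

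Regulators were called both higher and lower, and the minimum leans these counts in both directions. MYB12 in light and det1-1, and MYB111 in every comparison, entered only through the group other than dark wild type. MYB58, MYB85 and PAP1 in det1-1, and MYB58 and PAP1 in pifq, entered only through dark wild type and are among those counted lower. In light 4 of 9 were higher and 1 lower, against 12.4% and 10.1% of all genes (median 0.15). The flavonol activators MYB12 and MYB111 went from 0.369 to 40.1 FPKM and from 0.625 to 7.66 FPKM. In det1-1 2 of 9 were higher and 5 lower, against 17.3% and 9.71% (median -1.26, and -0.71 with 1 FPKM added). MYB12 went from 0.342 to 7.48 FPKM and MYB7, of the repressor subgroup that also holds MYB4, from 70.7 to 26.0 FPKM. In pifq 1 of 8 was higher and 4 were lower, against 12.9% and 13.2% (median -1.01, and -0.67 with 1 FPKM added), with MYB7 from 74.0 to 18.7 FPKM. The counts of higher genes in both mutants and of lower genes in light are near these shares, so they are no result about the list.

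**Figure D4:**
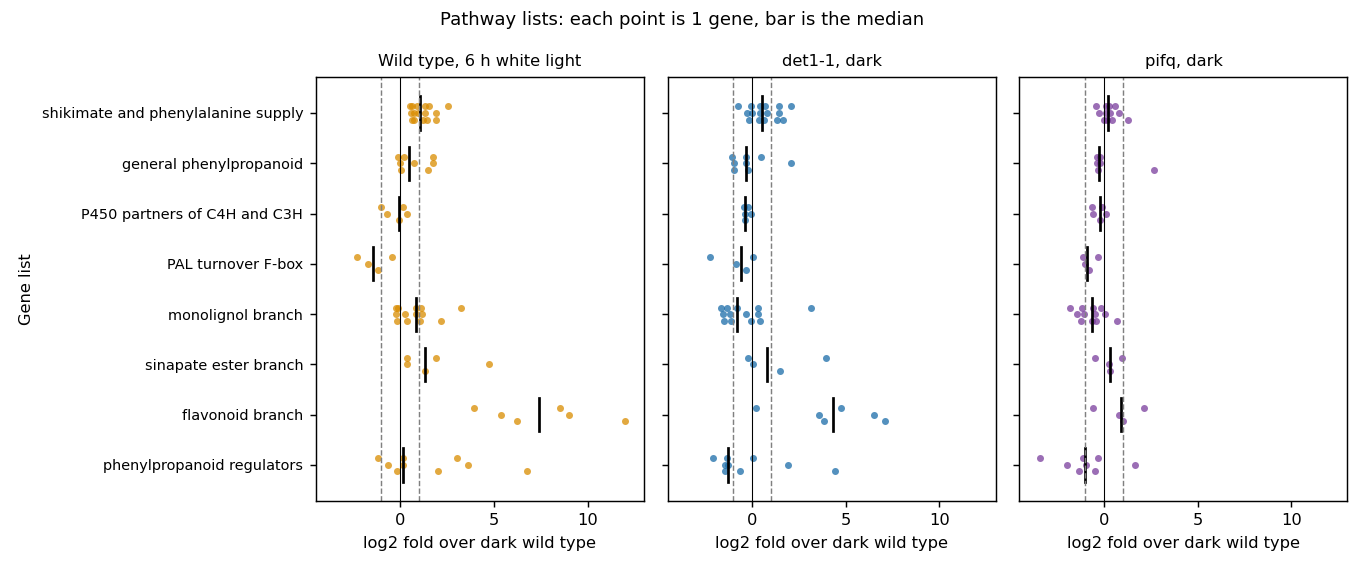
Log2 fold over dark wild type of every analysed gene in the 8 lists, with a panel for each comparison, a point for each gene, a black bar at the list's median and dashed lines at 2-fold. In light the supply, sinapate and flavonoid lists lie to the right (medians 1.08, 1.33 and 7.38) and the F-box list to the left (-1.42), while in det1-1 and pifq the monolignol medians are at -0.82 and -0.61.

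The genes with the pattern most like PAL1 were found by the distance over the 3 log2 folds among 11417 genes whose level reached 5 FPKM in each table. The nearest were MS2 (AT3G03780, log2 folds 1.61, 0.04 and -0.25 in light, det1-1 and pifq) and AT5G10730 (1.74, 0.07 and -0.16). Those most like 4CL1 were AT1G77660 (0.20, -1.14 and -0.36), AT3G45410 (0.13, -1.05 and -0.35) and IRX6 (AT5G15630, 0.16, -1.17 and -0.35). The distances were 0.302 and 0.322 for PAL1 and 0.0923 to 0.138 for 4CL1. C4H could not be placed, since it has 2 of the 3 values.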

How the data were processed

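The 12 libraries (3 per group) were aligned and quantified by the authors with TopHat and Cufflinks on the TAIR10 build, per the submitters' processing notes. Versions, settings, strand handling and the annotation are not given in the sources used here. Each of the 3 deposited tables holds the authors' FPKM for dark wild type and 1 other group, per the file headers, which name no unit. FPKM was taken from the tools and the values. The deposited log2 column was treated as a score, since a placeholder stands where a group is at 0.

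Ratios of the FPKM values were taken on the log2 scale without a pseudocount. Genes with several entries, with no comparison by the authors' program or at 0 in a group were left out, as were genes under 1 FPKM in the higher group. Dark wild type had to match within 1.5-fold between tables after scaling (factors 0.927 for det1-1 and 0.971 for pifq). This left 14810, 14844 and 15014 genes. The calling steps were run on simulated data whose planted changes lay well past 2-fold with little noise. That run checks the code and does not bear on genes near the cut. With 1 value per group no test was possible, so the call is 2-fold, as had been set for that case. Named are all 10 pathway genes and, per list and comparison, up to 2 genes past 2-fold and with at least 5 FPKM, by size of the log2 fold. The genes and lists were chosen with earlier results of these data known. Sequences and gene models are from RefSeq, TAIR10.1, whose gene table matched all 78 identifiers. The files hold no coordinates. Of the genes most like PAL1, 1 is not reported here. Tools were Python 3.11.15, pandas 2.3.3 and Biopython 1.88.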

Additional observations from a re-analysis of the deposited data

How the results depend on the processing

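Of 22 folds of single pathway genes, each under 5 other settings (1 or 5 FPKM added, the authors' deposited log2 ratio, centring on the median gene, the mean dark wild type of the tables), 107 of 110 values kept their side of 2-fold. The exceptions came with 5 FPKM added: PAL3 was 0.58 in det1-1 and 0.90 in pifq, and 4CL1 was -0.98 in det1-1. With 5 FPKM added, the genes called in det1-1 therefore numbered 0 higher and 0 lower, and those called in pifq 0 higher. Many of the 110 values had little room to move. The deposited ratio is the same ratio, within 7.04e-06, so its 22 values could not change side. Centring moved folds only by the all-gene medians, 0.02 in light, -0.03 in det1-1 and 0.01 in pifq. The mean dark wild type comes from the same libraries. Requiring 5 FPKM in the higher group left 0 higher in det1-1. The median log2 fold in light, 0.46, was 0.30 with 1 FPKM added and 0.17 with 5 FPKM added. It was 0.21 with the minimum of 5 FPKM, and 0.21 with 4CL5 included by its higher entry or by the sum of its entries, settings chosen after the data were seen. The 3 genes called in light were called under every setting. No paired analysis was possible because the tables hold 1 value per group, and for the same reason leaving out replicates was not run. Depth is unknown, so the low PAL3 values have an error that cannot be stated.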

Other observations

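The following genes of the monolignol and regulator lists were picked after their values were seen. LAC11, a laccase, and CAD5, an alcohol dehydrogenase, were at least 2-fold lower in both mutants and under 2-fold in light. The laccase LAC17, the peroxidase PRX64 and the regulators MYB7 and MYB85 met the same description. Their log2 folds in det1-1, pifq and light were -1.66, -1.08 and -0.23 for LAC17 and -1.49, -1.43 and 0.36 for PRX64. For MYB7 they were -1.44, -1.99 and 0.15, and for MYB85 -1.26, -1.08 and -0.62, at low levels. LAC4, also given, was under 2-fold in pifq. With wild type first, LAC11 was 64.8 and 21.9 FPKM in det1-1, 67.8 and 30.1 FPKM in the pifq comparison, and 69.9 and 61.6 FPKM in light. LAC4 was 58.6 and 25.8 FPKM in det1-1, 61.2 and 40.1 FPKM in pifq, and 63.1 and 58.3 FPKM in light. CAD5 was 183 and 84.9 FPKM in det1-1, 204 and 88.6 FPKM in pifq, and 197 and 234 FPKM in light. MYB58, an activator of lignin genes, was 2.54 and 0.928 FPKM in det1-1, 2.25 and 0.887 FPKM in pifq, and 2.74 and 1.19 FPKM in light, low values throughout.

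Other genes picked in the same way reached 2-fold in light and not in the mutants. CAD4 and the reductase CCR1 of the monolignol list did so too, with log2 folds in light of 2.19 and 1.10. MYB4, a repressor known to act on C4H, was 30.9 and 123.9 FPKM in light, 28.6 and 18.4 FPKM in det1-1, and 29.9 and 21.3 FPKM in pifq. COMT1, a methyltransferase shared by lignin and sinapate synthesis, was 253 and 568 FPKM in light, 235 and 292 FPKM in det1-1, and 234 and 207 FPKM in pifq. These differences between conditions were not tested, since each rests on 1 value per group.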
